A study of Homo sapiens with 29 samples.

Results

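The nuclear pore complex genes described here are 31 genes that encode structural and regulatory subunits of the pore. They were chosen by symbol, with no measured value in the rule, from the 38148 genes of an RNA-seq table of HCT116 cells, an established human colorectal carcinoma line. In the matching ChIP-seq table for crotonyl-lysine (Kcr), an acyl mark on lysines of histones and other proteins, 43 of 49916 regions carried the symbol of 1 of 24 of these genes. All 31 genes passed the filter on low RNA values, which left 17973 genes to test. The cells received either siRNA against DAXX, a histone chaperone and transcriptional co-repressor, at 35 nM, or non-targeting siRNA at 25 nM, so dose and target differ together. Each siRNA was used without or with 10 mM crotonate, a short-chain fatty acid that cells convert to the donor for lysine crotonylation. The exposure to crotonate was 18 h by the description of the series and 48 h by the protocol of the samples. All groups are the same unmodified line apart from siRNA and crotonate. RNA was sequenced in 4 libraries for each of the 4 groups. Anti-Kcr ChIP counted 3 samples for each siRNA without crotonate and 2 for each siRNA with it, plus 1 input library, labelled as DAXX siRNA.

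The pore is a ring of many copies of each subunit set into the nuclear envelope. Its outer rings are built from the Y complex and its inner ring from adaptor nucleoporins. Membrane-embedded subunits anchor it, and channel subunits with phenylalanine-glycine repeats form the barrier through which importins and exportins carry cargo. Filaments on the cytoplasmic side take part in mRNA export, and a basket on the nuclear side contacts chromatin. Several nucleoporins also bind chromatin or kinetochores, and in dividing epithelial tumour cells new pores are needed in every cycle.

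RNA libraries held 35.0 to 55.1 M reads (M, 10 to the power of 6) in genes, and anti-Kcr libraries held 2.23 to 3.64 M reads in regions. DAXX transcript, read in every library as the check of the knockdown, was 101 to 105 reads per M reads of the library (RPM) with non-targeting siRNA and 22.9 to 27.4 RPM with DAXX siRNA. With crotonate it was 95.2 to 102 RPM and 13.1 to 24.2 RPM. Under DAXX siRNA, the log2 fold change of DAXX with crotonate ran from -0.50 to -0.21 over 16 other settings. Its adjusted p was no longer under 0.05 in 8 of them. The depth of the knockdown may thus differ along with crotonate wherever the group with both is compared. The 7 colon epithelial markers summed to 4067 to 4780 RPM with non-targeting siRNA and 3849 to 4075 with crotonate. With DAXX siRNA the sum was 4572 to 4998 RPM, and 4189 to 5008 with crotonate added. KRT8 made up most of it (2519 RPM on average), and VIL1 and CDX2 averaged 13.5 and 17.5 RPM. All 5 leukocyte markers together reached at most 0.813 RPM, the 4 endothelial ones at most 1.71 RPM and the 5 fibroblast ones at most 27.7 RPM, nearly all of it COL1A1. DCN and LUM had no read in any library. Several RNA libraries lay at an end of their group of 4 for most pore genes. Library 2 with non-targeting siRNA was the lowest for 17 of 31 pore genes (33.2% of all tested genes) and the highest for 8 (39.8%). With non-targeting siRNA and crotonate, library 3 was the highest for 17 (22.9%) and the lowest for 0 (20.9%). Library 4 with DAXX siRNA was the lowest for 17 (29.5%), and library 1 of that group the highest for 19 (25.6%). With DAXX siRNA and crotonate, library 4 was the lowest for 19 (31.8%) and library 1 the highest for 20 (30.2%). Calls and medians of the pore genes that 1 of these moved by over 1.5 times are given with and without it. The labels do not say whether the libraries are separate cultures, so the spread between them may be technical.

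Crotonate with non-targeting siRNA was the comparison in which the most pore genes were called, and all 3 calls were lower. NUP85, NUP188 and NUP210 fell at an adjusted p under 0.05, in a comparison where 15.4% of all tested genes were called in either direction and 2.34% were called lower. The median log2 fold change of the 31 genes was -0.11, beside 0.07 for all tested genes, and 29 of the 31 lay below 0, beside 37.5% of all tested genes. Among the 5531 tested genes whose mean level lay within the range of the pore genes, the median was 0.02 and 44.8% lay below 0. NUP58 (0.12) and AHCTF1 (0.01) were the 2 pore genes above 0. Both read lowest of the non-targeting group in its library 2 (126 and 98.3 RPM), and without that library both lay below 0. Of the 31 pore genes 1 was then above 0.

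Scaling matters for this comparison. Centring every library on its median gene moved the median of all tested genes by -0.13 on the log2 scale. The calls over all genes went from 2352 higher and 420 lower to 1458 higher and 1701 lower. The median of the pore genes minus that of all tested genes was -0.18 as deposited and -0.11 with quantile scaling. The number of pore genes called lower went from 3 to 14 with centring and to 4 with quantile scaling, and none was called higher under either. RPM are shares of a library, so fewer transcripts of these genes and more RNA from others cannot be told apart.

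Crotonate with DAXX siRNA, which shares no library with the comparison above, gave 1 lower call and no higher call. NUP107 fell, in a comparison where 15.4% of all tested genes were called in either direction and 2.41% were called lower. The median of the 31 genes was -0.04, beside 0.06 for all tested genes, and 24 of 31 lay below 0, beside 39.9% of all tested genes. Without library 1 of the DAXX siRNA and crotonate group the pore median became -0.09, with 4 of 31 genes above 0, and without library 4 of that group -0.02, with 14 above 0. Centring moved the median of all genes by -0.12 here, and 4 pore genes were then called lower. The pore median minus that of all genes was -0.11 as deposited and -0.02 with quantile scaling, which called 2 pore genes lower. Across the 31 genes the changes under the 2 siRNAs had a Pearson r of 0.37 and a Spearman rho of 0.48, and 23 genes were below 0 in both. The same r over all tested genes was 0.67. These r values are across genes of one set of libraries and carry no test.

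After DAXX siRNA no pore gene was called. Without crotonate 0.406% of all tested genes were called, and with crotonate 1.06%. The median log2 fold change of the pore genes was -0.05 without crotonate and 0.05 with it, beside -0.01 and -0.01 for all tested genes. Without library 1 of the DAXX siRNA and crotonate group the value with crotonate was 0.0076, close to 0. It ran from there to 0.07 (without library 4 of that group) over the libraries left out. The value without crotonate ran from -0.07 (without library 3 of the non-targeting group) to -0.03 (without library 4). In each of these comparisons 1 pore gene (3.23%) had an unadjusted p under 0.05, beside 12.2% of all tested genes without crotonate and 10.9% with it. NUP214, whose level is given with the cytoplasmic subunits, was that gene without crotonate (-0.19, SE 0.080, adjusted p = 0.346). NUP210 was that gene with crotonate (0.20, SE 0.089, adjusted p = 0.408). The interaction, which asks whether the DAXX siRNA effect differs with crotonate, was called for no pore gene and 0% of all tested genes by limma. At an unadjusted p under 0.05 it counted 0 pore genes and 433 of 17973, and by limma-voom, again with no gene called, 1 pore gene and 443. Its median was 0.07 for the pore genes and 25 of 31 lay above 0, beside -0.0062 and 8775 of 17973 for all tested genes. For the 5531 genes in the level range of the pore genes these were 0.0028 and 2811. The largest pore values were NUP210 (0.26, SE 0.125), POM121 (0.22, SE 0.131) and NUP188 (0.20, SE 0.100). The pore median of the interaction was 0.01, with 18 of 31 above 0, without library 1 of the DAXX siRNA and crotonate group, and 0.12 without library 4. It was 0.04 without library 4 of the DAXX siRNA group, or without library 1 or 4 of the non-targeting group.

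**Figure D1:**
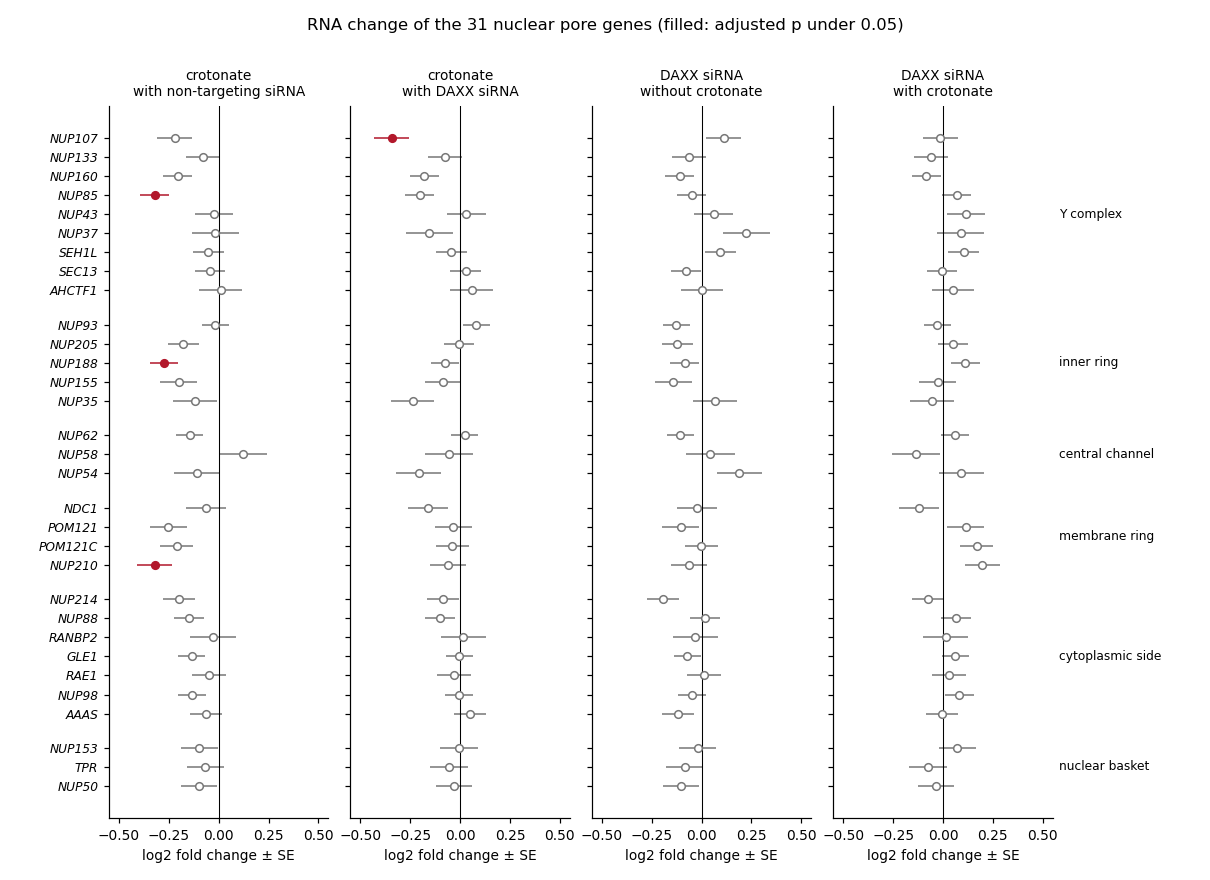
Log2 fold change in RNA (horizontal axis, bars are the SE from limma) of each of the 31 nuclear pore genes in 4 comparisons, grouped by the part of the pore they belong to. Filled points passed an adjusted p of 0.05: NUP85, NUP188 and NUP210 for crotonate with non-targeting siRNA, and NUP107 for crotonate with DAXX siRNA.

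Groups that did not overlap at all give a plainer count. With non-targeting siRNA, 8 of 31 pore genes had every crotonate library below every library without it, where 4.11% of all tested genes did. They were NUP85, NUP160, NUP188, NUP205, NUP210, NUP98, POM121 and POM121C. With DAXX siRNA only NUP85 did so, where 3.99% of all tested genes did. For DAXX siRNA without crotonate it was NUP214 alone, against 3.46% of all genes, and with crotonate no pore gene, against 4.94%. No pore gene had non-overlapping groups in the higher direction in any of the 4 comparisons.

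The Y complex, the scaffold of the outer rings, has 9 members here and held 2 of the 4 calls. NUP85 (ENSG00000125450, chromosome 17, 75205659 to 75235758, plus strand) encodes a subunit of the short arm of the Y. It read 102, 122, 96.1 and 109 RPM with non-targeting siRNA and 87.1, 83.7, 87.8 and 82.9 RPM when crotonate was added. With DAXX siRNA it read 104, 102, 101 and 105 RPM, and 83.7, 94.6, 89 and 91.3 RPM with crotonate. Under either siRNA every crotonate library lay below every library without crotonate. The fall with non-targeting siRNA was from 107 ± 11.1 to 85.4 ± 2.46 RPM (SD, n = 4), a log2 fold change of -0.32 (SE 0.072, adjusted p = 0.0041). With DAXX siRNA the difference was -0.20 (SE 0.072, adjusted p = 0.0654), which did not pass, and the interaction was 0.12 (SE 0.102).

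NUP107 (ENSG00000111581, chromosome 12, 68686951 to 68745809, plus strand) encodes a subunit at the stem of the Y. Its levels were 75.6, 78.1, 77.8 and 66.4 RPM with DAXX siRNA and 61.9, 53.6, 67.9 and 52.3 RPM with DAXX siRNA and crotonate. With non-targeting siRNA they were 68.9, 61.5, 72.1 and 73.2 RPM, and 57.7, 57.9, 58.9 and 62 RPM with crotonate. The groups overlapped under each siRNA, through library 4 of the DAXX siRNA group and library 2 of the non-targeting group. The fall with DAXX siRNA was from 74.5 ± 5.51 to 58.9 ± 7.37 RPM (SD, n = 4), or -0.34 (SE 0.088, adjusted p = 0.0106). With non-targeting siRNA the value was -0.22 (adjusted p = 0.103), and without library 2 of that group NUP107 passed.

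NUP160 (ENSG00000030066, chromosome 11, 47778087 to 47848555, minus strand) encodes a subunit of the long arm. It read 126, 114, 117 and 124 RPM with non-targeting siRNA and 108, 98.1, 109 and 103 RPM with crotonate, with no overlap. The difference was -0.20 (SE 0.073, adjusted p = 0.0664) and did not pass, although it did without library 2 of the non-targeting group. With DAXX siRNA the levels were 120.4, 108, 111 and 107 RPM, and 109.8, 99.6, 97.9 and 87.9 RPM with crotonate (-0.18, adjusted p = 0.113). The other 6 Y complex genes, NUP133, NUP43, NUP37, SEH1L, SEC13 and the chromatin-binding AHCTF1 (ELYS), were not called in any comparison, and their values for crotonate ran from -0.15 to 0.06. Among these NUP37 had the highest value after DAXX siRNA without crotonate, 0.23 (SE 0.117, adjusted p = 0.452).

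The inner ring joins the outer rings to the membrane and the channel, and 1 of its 5 genes was called. NUP188 (ENSG00000095319, chromosome 9, 128947699 to 129007096, plus strand), a large solenoid subunit that binds NUP93, read 248, 262, 228 and 229 RPM with non-targeting siRNA. With crotonate it read 198, 204, 209 and 187 RPM, all below. NUP188 shares its strand and 9323 bases with AL672142.1, which averaged 8.89 RPM. The fall was from 242 ± 16 to 199.7 ± 9.54 RPM (SD, n = 4), or -0.27 (SE 0.071, adjusted p = 0.0109). With DAXX siRNA the levels were 229, 233, 215 and 233 RPM, and 242, 213, 201 and 209 RPM with crotonate. Those groups overlapped, since library 1 of the crotonate group was the highest of all 8, and the difference was -0.08 (adjusted p = 0.531). The paralogous NUP205 gave -0.18 (adjusted p = 0.132) for crotonate with non-targeting siRNA and -0.01 with DAXX siRNA. NUP155 gave -0.20 and -0.09, NUP35 gave -0.12 and -0.24, and NUP93 gave -0.02 and 0.08. None of these passed.

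No gene of the central channel was called. Its 3 subunits, NUP62, NUP58 and NUP54, bind one another and carry repeat domains that transport receptors touch. Their values for crotonate with non-targeting siRNA were -0.14, 0.12 and -0.11. NUP58 read 182, 126, 209 and 199 RPM with non-targeting siRNA and 191, 183, 196 and 196 RPM with crotonate. Its low library 2 set the widest spread of any pore gene within groups (SD of 0.196 on the log2 scale). NUP62 overlaps IL4I1 and AC011452.1 on its own strand in the table, which read 9.96 and 18.8 RPM on average, so a part of its reads is uncertain.

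The membrane ring has 4 genes and held 1 call. NUP210 (ENSG00000132182, chromosome 3, 13316235 to 13420322, minus strand) encodes a glycoprotein that spans the envelope and lies mostly in its lumen. Its levels were 217, 258, 209 and 201 RPM with non-targeting siRNA and 163, 194, 177 and 172 RPM with crotonate, with no overlap. The fall was from 221 ± 25.3 to 177 ± 13.3 RPM (SD, n = 4), or -0.32 (SE 0.089, adjusted p = 0.0173). Without library 1 of the crotonate group the adjusted p was 0.0663 and NUP210 no longer passed. With DAXX siRNA it read 189, 222, 200.3 and 234 RPM, and 218, 202, 184 and 206 RPM with crotonate, which overlapped (-0.06, adjusted p = 0.719).

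POM121 (ENSG00000196313, chromosome 7, 72879365 to 72951440, plus strand) and POM121C (ENSG00000272391, chromosome 7, 75416786 to 75486299, minus strand) encode near-identical membrane subunits, so how reads were split between them is uncertain. POM121 read 100, 103, 86.2 and 89.5 RPM with non-targeting siRNA and 72.9, 85.5, 81.9 and 77.3 RPM with crotonate. POM121C read 117, 105, 102 and 106 RPM and then 87.7, 101, 95 and 88.1 RPM. Both pairs of groups were separate, and neither difference passed: -0.25 (SE 0.092, adjusted p = 0.0727) for POM121 and -0.21 (SE 0.083, adjusted p = 0.0976) for POM121C. With DAXX siRNA POM121 read 83.3, 88.8, 79.3 and 102 RPM, and 93.4, 82.6, 75.3 and 93.3 RPM with crotonate (-0.03). POM121C read 103, 106, 98.5 and 122 RPM, and 113, 96.7, 96.6 and 113 RPM (-0.04). NDC1, the transmembrane anchor, gave -0.07 with non-targeting and -0.16 with DAXX siRNA and was not called.

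**Figure D2:**
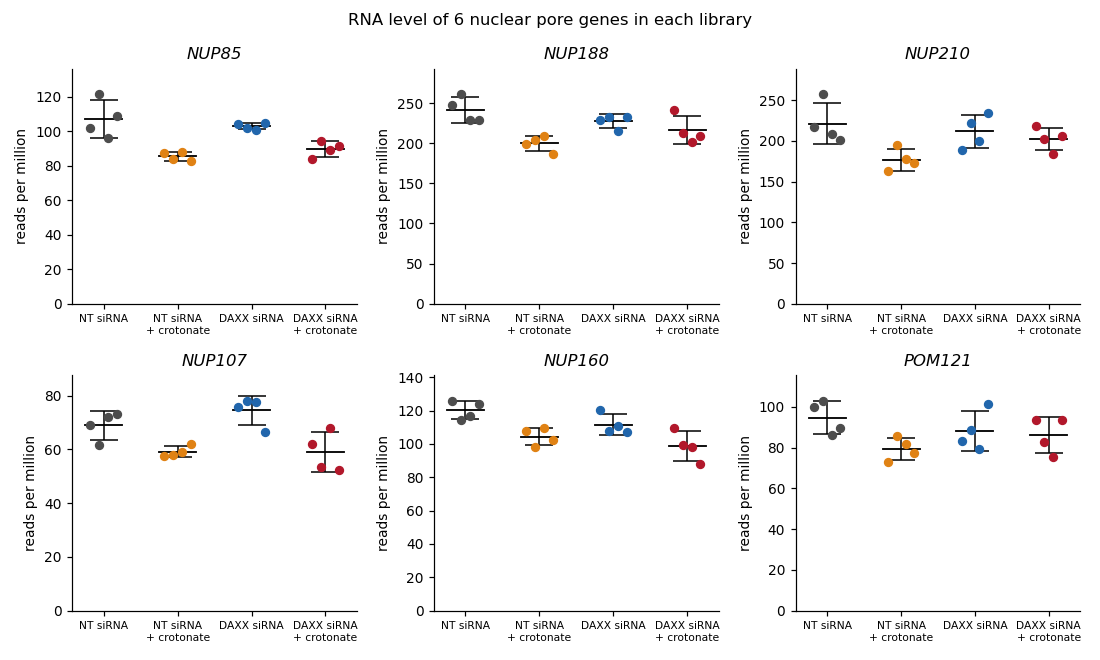
RNA level in RPM (vertical axis from 0) of 6 nuclear pore genes in each of the 16 libraries, with the mean and SD of each group of 4 in black. For NUP85, NUP188, NUP210, NUP160 and POM121 the libraries with non-targeting siRNA and crotonate lie below all libraries with non-targeting siRNA alone, and for NUP107 they overlap.

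None of the 7 genes grouped here with the cytoplasmic side and none of the 3 basket genes was called in any comparison. Each gene was counted in 1 part of the pore only, whatever other parts its products belong to. For crotonate with non-targeting siRNA the cytoplasmic genes had a median of -0.13, with all 7 below 0. NUP214, the filament scaffold that recruits the export helicase, was the lowest at -0.20 (SE 0.080, adjusted p = 0.103). It read 41.6, 41.1, 35.5 and 40.4 RPM with non-targeting siRNA, 32.7, 35.5, 36.1 and 33.5 RPM with crotonate, 35.1, 34.6, 34 and 34.8 RPM with DAXX siRNA, and 37.8, 32.4, 30.3 and 30.7 RPM with both. Every DAXX siRNA library without crotonate lay below the non-targeting ones. Its partner NUP88 gave -0.15, the repeat protein NUP98 -0.13, the export factors GLE1 and RAE1 -0.14 and -0.05, RANBP2, the SUMO ligase of the filaments, -0.03, and AAAS -0.06. NUP88 overlaps RABEP1 (106 RPM) on the opposite strand, and 13 of the 31 pore genes overlap some gene of at least 1 RPM, so reads are uncertain where strand was not counted. RANBP2 has RGPD copies in the genome, of which RGPD8 had the most reads (4.25 RPM). With DAXX siRNA the median of the 7 was -0.0041, and 5 lay below 0.

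The basket genes TPR, NUP153 and NUP50 gave -0.07, -0.10 and -0.10 for crotonate with non-targeting siRNA and -0.06, -0.01 and -0.03 with DAXX siRNA. Their pooled SD within groups was 0.14, 0.14 and 0.13 on the log2 scale, which is the spread of single libraries and not of a difference of means. For NUP153 the SE of each difference was 0.093. TPR, the main filament protein of the basket, ran from 129.7 RPM, in 1 library with DAXX siRNA and crotonate, to 192 RPM, in 1 with non-targeting siRNA.

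Pore genes also varied together between libraries that should be alike. After subtracting each group mean, the deviations of AHCTF1 and NUP153 over the 16 libraries had a Pearson r of 0.95, those of NUP43 and SEH1L 0.95 and those of TPR and RANBP2 0.94. Other pairs ran opposite: NUP107 and NUP62 gave -0.88, NUP54 and NUP62, both of the central channel, -0.86, and AAAS and NUP58 -0.84. Of 465 pairs, 37.4% lay over 0.5 and 15.1% under -0.5, beside 26% and 24.8% of the pairs among the 5531 genes of like level. These pairs share libraries and depth and carry no test.

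Library 2 of the non-targeting group was an example of such opposite deviations. AHCTF1 read 98.3 RPM there against 132 to 146 RPM in the other 3, RANBP2 129 against 164 to 178 RPM, and NDC1 117 against 155 to 169.9 RPM. NUP85, NUP188 and NUP210 were each at their highest in that same library. Without it the crotonate comparison called 5 pore genes lower rather than 3, adding NUP107 and NUP160, and the median became -0.17. The part of these library differences in the results was not tested.

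**Figure D3:**
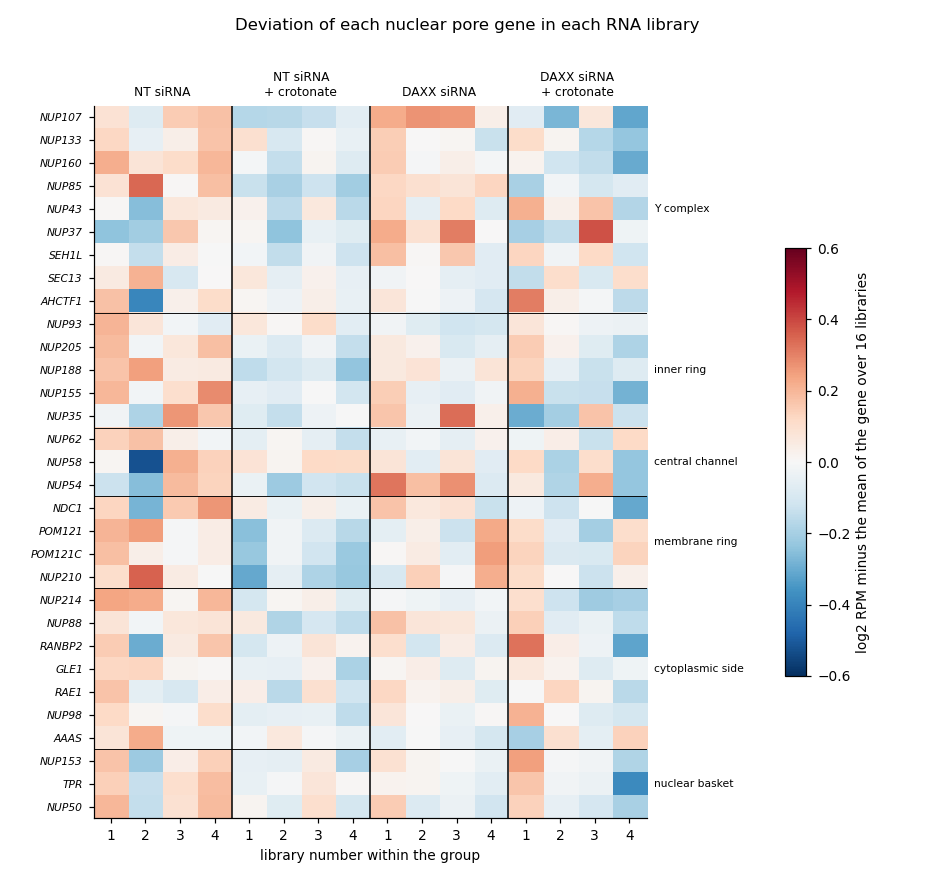
Deviation of each of the 31 nuclear pore genes (rows, grouped by part of the pore) in each of the 16 RNA libraries (columns), as log2 RPM minus the mean of that gene over all libraries. Most genes are paler or blue in the columns with non-targeting siRNA and crotonate, and library 2 with non-targeting siRNA holds both the lowest value (NUP58) and some of the highest (NUP85, NUP210).

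The counts of the transport, export, lamina and proliferation lists stand beside 15.4% of all tested genes called in each crotonate comparison (2.34% and 2.41% of all tested genes were called lower). Of 18 importins 17 were tested. With non-targeting siRNA crotonate lowered 1 of them, IPO4 (-0.26, adjusted p = 0.0463), and raised none. With DAXX siRNA it raised 1, IPO13 (0.41, adjusted p = 0.0041), and lowered none. Of 7 exportins 1 fell with non-targeting siRNA, the pre-miRNA exporter XPO5 (-0.24, adjusted p = 0.045), and none was called with DAXX siRNA. Their medians were -0.14 and -0.10. The calls of IPO4 and XPO5 were lost in 8 and 9 of 16 other settings, and that of IPO13 in 0.

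In the Ran cycle, which gives transport its direction, RCC1, the nucleotide exchange factor on chromatin, fell under both siRNAs. It went from 264 to 199.7 RPM with non-targeting siRNA (-0.40, SE 0.068, adjusted p = 0.000362) and from 249 to 199.3 RPM with DAXX siRNA (-0.33, adjusted p = 0.0024). RANBP1 fell with DAXX siRNA (-0.24, adjusted p = 0.0118). No other of the 7 genes was called, and none rose.

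Among the 18 mRNA export genes tested of 19, DDX39B, a helicase of the TREX complex, and its adaptor ALYREF fell with non-targeting siRNA (-0.25 and -0.24). Both fell with DAXX siRNA too (-0.23 and -0.27), and PCID2 fell as well, making 3 of 18. None rose. ALYREF lost its call in 8 and 4 of 16 other settings. Of 18 lamina and envelope genes, LMNB1 and TOR1A fell and SYNE1, SUN2 and TOR1B rose in each of the 2 crotonate comparisons. LMNB1, the B-type lamin, changed by -0.25 and -0.42, and the linker protein SYNE1 by 0.57 and 0.75. With non-targeting siRNA the calls of SUN2, TOR1A, LMNB1, SYNE1 and TOR1B were lost in 6, 6, 4, 1 and 1 of 16 other settings. With DAXX siRNA those of SUN2, TOR1A and TOR1B were lost in 5, 2 and 2, and those of LMNB1 and SYNE1 in 0. TOR1B was the only gene of these lists that changed after DAXX siRNA, falling by 0.83 without crotonate and by 0.87 with it on the log2 scale.

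Genes of DNA replication and division stood beside this. Of 17 proliferation genes 2 fell with non-targeting siRNA (MCM2, -0.30, and MCM5, -0.35) and 3 with DAXX siRNA (MCM2, -0.24, MCM4, -0.22, and PCNA, -0.23), and none rose. The latter 3 calls were lost in 8, 8 and 6 of 16 other settings. Their medians were -0.08 and -0.09. Of 9 mitochondrial transcripts read as a sign of RNA quality, none was called, and their medians were 0.07 and 0.24. The part of either list in the values of the pore genes was not tested.

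Crotonyl-lysine signal at the starts of pore genes was read from regions placed by coordinate, because 6 starts lie in regions labelled with a neighbouring gene. A region covered the start of 27 of 31 pore genes, all but NUP35, NUP37, NUP54 and POM121, and these 4 had none within 2 kb. Farther inside the gene, NUP35 had a region 6238 bases from the start, at a log2 signal over input of 1.54. POM121 had regions 44486 and 47786 bases from the start, at 1.34 and 0.78. Of all tested genes 68.5% had a region within 2 kb of the start, and of the 6312 genes with at least the mean level of the lowest pore gene, 80.9%. Averaged over samples, log2 signal over input was 1.02 in the median start region of a pore gene, beside 0.96 in the 8139 regions that cover the start of any tested gene. It was highest at RANBP2 (2.02) and RAE1 (1.67) and lowest at NUP43 (0.45) and NUP88 (0.50). The samples of RANBP2 and RAE1 overlap, so their order is not fixed by these data. Depth limits such ratios: the start region of RANBP2 held 57.2 scaled reads on average and 13.8 in the input, and that of POM121C 23.4 and 9.53.

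**Figure D4:**
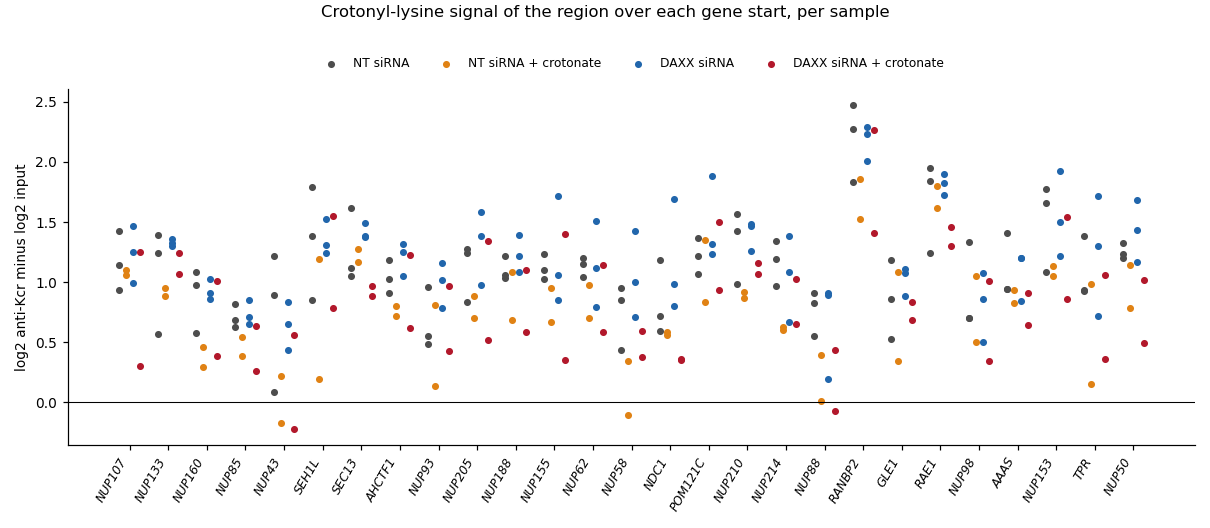
Log2 anti-Kcr signal minus log2 input signal (vertical axis) of the region that covers the start of each of 27 nuclear pore genes, with 1 point per ChIP sample in the colour of its group. RANBP2 and RAE1 lie highest, and crotonate samples lie mostly at or below those without crotonate.

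No region was called in any of the 5 Kcr comparisons by limma, so the calls were 0 of 43 regions with a pore symbol and 0% of all 49916. Other settings called up to 410 of all regions lower with non-targeting siRNA and up to 395 with DAXX siRNA, and of these 1 was a pore region, near NUP205, in 1 setting. At an unadjusted p under 0.05 the pore regions counted 10 for crotonate with non-targeting siRNA and 5 with DAXX siRNA, of 6616 and 4241 over all regions. They counted 1 and 2 for DAXX siRNA without and with crotonate, of 1186 and 2082, and 2 of 1542 for the interaction. The median log2 fold change with crotonate was -0.26 under each siRNA, beside -0.19 and -0.16 over all regions, and 37 of 43 lay below 0 each time, beside 74.4% and 72.0% of all regions. With quantile scaling 18 and 13 of 43 lay above 0. Single samples moved these medians. With DAXX siRNA the value was -0.48 without crotonate sample 2 and -0.08 without crotonate sample 3, and with non-targeting siRNA it ran from -0.38 (without sample 3) to -0.16 (without crotonate sample 3). Samples did not overlap, with crotonate lower, in 14 of 43 regions with non-targeting siRNA, where 26.6% of all regions did so, and in 10 of 43 with DAXX siRNA, where 20.3% did. Centring each library on its median region moved the median of all regions by 0.17 and 0.14. Relative to that median the pore regions lay at -0.06 and -0.10, a difference that such centring cannot change. With quantile scaling it was -0.07 and -0.09.

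At the 27 covered starts, 26 values were below 0 for crotonate with non-targeting siRNA (median -0.29) and all 27 with DAXX siRNA (median -0.34). The regions over any tested gene's start gave medians of -0.34 and -0.27, with 94.9% and 93.4% below 0. The pore starts were therefore close to other starts in both comparisons. For DAXX siRNA their medians were 0.09 without crotonate and 0.10 with it, beside 0.03 and 0.09 at the starts of all tested genes. Over the 43 regions with a pore symbol the corresponding medians were 0.06 and 0.07, and leaving out 1 sample took them from -0.01 to 0.18 and from -0.22 to 0.26. Across the 27 genes the change at the start and the change in RNA had a Pearson r of -0.18 for crotonate with non-targeting siRNA and 0.19 with DAXX siRNA, across genes and with no test.

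The start regions of the 4 called genes all had lower crotonate means and none passed. The region over NUP85 (chromosome 17, 75195001 to 75212100) is 17100 bases long. Its log2 signal was 8.99, 8.85 and 8.80 with non-targeting siRNA, 8.71 and 8.55 with crotonate, 8.88, 9.02 and 8.82 with DAXX siRNA, and 8.80 and 8.43 with both, beside 8.17 in the input. Crotonate samples lay below the others under each siRNA, by -0.25 (SE 0.148) and -0.29 (SE 0.148). The region over NUP210 (chromosome 3, 13417951 to 13421850) read 6.86, 6.28 and 6.71 and then 6.21 and 6.16 with crotonate, which did not overlap (-0.43, SE 0.195, unadjusted p = 0.033). With DAXX siRNA it read 6.76, 6.78 and 6.55, and 6.45 and 6.36 with crotonate.

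The region over NUP188 (chromosome 9, 128942401 to 128949150) read 7.30, 7.12 and 7.14 with non-targeting siRNA and 7.17 and 6.77 with crotonate, and 7.17, 7.30 and 7.47 with DAXX siRNA and 7.18 and 6.67 with both. The region over NUP107 (chromosome 12, 68685151 to 68688150) read 6.15, 5.87 and 5.66, then 5.79 and 5.83 with crotonate, 5.97, 6.19 and 5.72 with DAXX siRNA, and 5.98 and 5.03 with both. Its last value stands alone, and the crotonate samples overlapped the others. The starts of NUP160 and POM121C read 6.64, 6.75 and 6.24 and 4.47, 4.62 and 4.32 with non-targeting siRNA, 6.13 and 5.96 and 4.60 and 4.09 with crotonate, 6.69, 6.58 and 6.53 and 5.14, 4.49 and 4.57 with DAXX siRNA, and 6.68 and 6.05 and 4.75 and 4.19 with both. Only NUP160 with non-targeting siRNA had separate groups.

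The 3 pore regions with the smallest unadjusted p over the 4 comparisons are given with their samples. A 4200-base region over the start of NUP50 (chromosome 22, 45161101 to 45165300), labelled NUP50-DT, read 6.88, 7.12 and 6.61 with DAXX siRNA and 6.45 and 5.94 with crotonate added (-0.67, SE 0.200, unadjusted p = 0.00198, adjusted p = 0.515). The NDC1 start region (chromosome 1, 53836951 to 53838750) read 5.71, 6.42 and 5.53 and then 5.07 and 5.08 (-0.81, SE 0.251, unadjusted p = 0.00291). A 450-base region 14634 bases from the NUP205 start (chromosome 7, 135572551 to 135573000) read 2.88, 3.30 and 2.98 and then 2.17 and 0.38 (-1.78, SE 0.566, unadjusted p = 0.00357). With non-targeting siRNA it read 3.79, 3.77 and 3.41, and 3.75 and 2.77 with crotonate, so that DAXX siRNA with crotonate stood at -1.98 (SE 0.620, unadjusted p = 0.00307). At this signal a few reads set the value.

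The promoters of the 4 called genes are shown because the Kcr regions above cover each of them whole. Each is the 250 bases before the RefSeq start (GRCh38.p14), on the strand of the gene, with matches to the motifs searched in capitals.
NUP85, chr17:75205429-75205678, plus strand: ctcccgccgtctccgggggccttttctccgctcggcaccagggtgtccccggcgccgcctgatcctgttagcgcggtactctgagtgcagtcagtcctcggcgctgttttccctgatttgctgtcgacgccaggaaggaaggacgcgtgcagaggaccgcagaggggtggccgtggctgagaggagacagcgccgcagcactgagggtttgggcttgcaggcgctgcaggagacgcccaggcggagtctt
NUP107, chr12:68686728-68686977, plus strand: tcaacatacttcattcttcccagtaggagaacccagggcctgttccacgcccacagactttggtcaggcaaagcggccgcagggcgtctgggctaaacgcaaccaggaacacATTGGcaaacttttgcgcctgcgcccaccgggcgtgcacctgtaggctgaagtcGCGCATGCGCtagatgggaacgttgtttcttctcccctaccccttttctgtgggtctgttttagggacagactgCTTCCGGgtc
NUP188, chr9:128947449-128947698, plus strand: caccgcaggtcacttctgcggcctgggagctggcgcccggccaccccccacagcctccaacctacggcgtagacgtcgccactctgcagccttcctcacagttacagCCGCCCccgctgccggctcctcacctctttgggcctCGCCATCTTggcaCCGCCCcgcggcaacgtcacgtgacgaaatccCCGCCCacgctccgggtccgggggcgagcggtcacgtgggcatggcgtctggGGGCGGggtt
NUP210, chr3:13420323-13420572, minus strand: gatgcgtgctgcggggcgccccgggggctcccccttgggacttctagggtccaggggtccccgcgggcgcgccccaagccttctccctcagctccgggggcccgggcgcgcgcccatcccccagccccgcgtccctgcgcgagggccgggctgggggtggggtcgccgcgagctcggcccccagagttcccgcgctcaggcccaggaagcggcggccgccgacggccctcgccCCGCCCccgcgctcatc
The motifs were searched on both strands. CCGGAAG stood for the ETS family, GCATGCGC for NRF1, the letters GGGCGG for the GC box, AAGATGGCG for YY1, either TTTCGCGC or TTTGGCGC for E2F, and the letters TATAAA for the TATA box. The CCAAT box was searched by the letters of its own name. NUP85 held none of these letters, NUP107 held CCAAT, a pair of overlapping NRF1 matches on opposite strands and ETS, NUP188 held GC boxes and YY1, and NUP210 held a GC box. No single motif was shared by all 4 promoters over either length.

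Over the 300 bases from 250 before to 50 after the start, 28 of the 31 pore genes had a RefSeq promoter in the table used. The ETS letters stood in 12 of these (42.9%), beside 18.0% of the 11406 promoters of tested genes and 10.7% of all 27305. YY1 letters stood in 3 (NUP188, NUP205 and NUP88, 10.7%), beside 3.67% and 1.85%, and NRF1 in 3 (NUP107, NUP50 and NUP62, 10.7%), beside 5.23% and 3.27%. The GC box stood in 12 (42.9%), beside 68.9% and 44.6%, CCAAT in 10 (35.7%), beside 36.3% and 35.7%, E2F in 1 (3.57%), beside 1.97% and 1.18%, and the TATA box in 0, beside 5.94% and 12%. The pore promoters had a median of 26 CpG and 63.5% GC, beside 26 and 65% in tested genes and 14 and 58.3% in all. A match describes letters only, and motif letters overlap within GC-rich sequence.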

How the data were processed

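Per the submitters' processing notes, reads were trimmed with Trim Galore (0.6.2 for RNA, 0.6.5 for ChIP) and cutadapt 2.3, aligned to GRCh38 with HISAT2 2.2.1 (RNA) or Bowtie2 (ChIP), and regions were called with MACS. How regions were combined, and the counting strand, are not stated. The authors deposited log2 values in both tables: log2 RPM per gene, not divided by gene length, with 0 reads entered as 0.9 read, and log2 reads per region after 1 scaling factor per library, with input not subtracted.

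Tests used limma 3.58.1 (R 4.3.3) on those log2 values, with a mean per group, a trended variance and Benjamini-Hochberg adjustment over all genes or regions. A call is an adjusted p under 0.05. RNA genes needed 0.25 RPM in 4 libraries. ChIP samples 1A and 1B differed by little more than read sampling (chi-squared over degrees of freedom 1.01 in each siRNA group) and were counted as 1 sample. The script was tested on simulated data.

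The pore genes and all lists were chosen with earlier results of these data known. Every-library values are given for pore genes called in any of 4 RNA comparisons, filled to 6 by unadjusted p, and for POM121C with POM121. Other genes with such values (NUP214, NUP58 and the library 2 examples) were chosen after their values were seen. For each companion list the rule named 2 called genes in either direction per comparison, ranked by adjusted p. Where 3 were called, the third was named after its value was seen. Region values are given at the starts of the pore genes with every-library values by that rule, and for the 3 regions with the smallest unadjusted p. Alternatives covered scaling, filter, pseudocount, limma-voom on recovered reads (100% of RNA values came out whole), the replicate number as a block, and each library left out.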

Additional observations from a re-analysis of the deposited data

Results flagged for a closer look

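In 124 groups of 4 RNA libraries (31 pore genes in 4 groups each), 2 held a library far from the other 3, where chance flags about 1 in 20. NUP98 read 154 RPM in library 4 with non-targeting siRNA and crotonate, against 164 to 166 RPM in the others. NUP88 read 102 RPM in library 2 with non-targeting siRNA, against 108 RPM in each of the others.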

How the results depend on the processing

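NUP85 and NUP188 (crotonate with non-targeting siRNA) and NUP107 (crotonate with DAXX siRNA) stayed past the threshold in all 16 alternatives each, and NUP210 in 15. The number of pore genes called for crotonate with non-targeting siRNA became 14, with a median of -0.24, when libraries were centred on the median gene, and ran from 2 to 5 over the libraries left out, with 5 without library 2 of the non-targeting group. For crotonate with DAXX siRNA it became 4 with centring and 2 with quantile scaling, and ran from 1 to 2 over the libraries left out, with 2 without library 1 or library 3 of the DAXX siRNA and crotonate group. For Kcr the count of called pore regions with DAXX siRNA was 0, and 1 without sample 2 of the crotonate group (NUP205). The deviations of same-numbered RNA libraries correlated at -0.15 to 0.09 in the DAXX siRNA comparisons and at 0.02 to 0.19 in the crotonate ones. Those of same-numbered Kcr samples correlated at 0.0038 to 0.095. These values do not decide whether the numbers mark pairs, and the analysis as reported did not pair them. With the replicate number as a block, 4 pore genes rather than 3 were called for crotonate with non-targeting siRNA (NUP160 added) and 1 for crotonate with DAXX siRNA. The block called 0 pore genes in the other 3 RNA comparisons and 0 pore regions. Over all tested genes it called 2632 higher and 516 lower for crotonate with non-targeting siRNA, beside 2352 and 420 without the block. For crotonate with DAXX siRNA these were 2581 and 584, beside 2338 and 433. For DAXX siRNA they were 39 and 78 without crotonate, beside 18 and 55, and 98 and 155 with it, beside 70 and 120. Over all 49916 Kcr regions, of which none was called in the analysis as reported, the block called 410 lower for crotonate with non-targeting siRNA and 3 with DAXX siRNA. Samples 1A and 1B kept apart gave 97 and 3, and fitting only the groups compared gave 64 and 0. Without crotonate sample 2 or 3 with non-targeting siRNA 44 or 10 were called lower, and without sample 2 with DAXX siRNA and crotonate 395. Restricting start regions to those labelled with the pore gene itself, chosen after seeing the data, left 21 of 27. Counts of 4 libraries, and of 2 ChIP samples with crotonate, limit what could be called.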
